A study of Mus musculus with 12 samples.

Results

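The genes described here link the cell membrane and its adhesions to actin filaments: the caveolin genes *Cav1* and *Cav2*, the filamin genes *Flna* and *Flnc*, the filamin-binding gene *Fblim1*, and the actin-linked genes *Evl*, *Pls3*, *Smtnl2* and *Pak1*. They are 9 of the 54532 genes in the count table, found there by symbol. The set was selected on the expression differences between these libraries, with results of the 3 comparisons below already known. Their fold changes and adjusted p-values therefore describe the set and are no independent evidence for it. All 9 passed the filter on low counts and were among the 14894 genes tested.

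The libraries were bulk RNA-seq of bone marrow cells from wild-type C57BL/6 mice, grown in medium with GM-CSF and IL-6, cytokines that drive myeloid differentiation, and harvested on day 5. The cultures received vehicle (0.1% DMSO), 10 µM indole-3-propionic acid (IPA), a product of tryptophan breakdown by gut bacteria, or 50 µM IPA. Each group had 4 libraries. The labels do not say whether these came from separate animals or cultures, so p-values measure the spread between libraries, which may be technical. The cultures are mixed, and in bulk RNA fewer cells of a type and less RNA per cell cannot be told apart.

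Caveolins coat caveolae, small pits of the plasma membrane that take part in lipid handling, signalling and membrane repair, and *Cav2* protein depends on *Cav1* protein to reach the surface. Filamins cross-link actin filaments and hold receptors and integrins to them, and migfilin, the product of *Fblim1*, brings filamin partners to adhesion sites. *Evl* encodes an Ena/VASP protein that favours filament elongation, *Pls3* a plastin that bundles filaments, *Smtnl2* a smoothelin-like protein, and *Pak1* a kinase that acts below the GTPases Rac and Cdc42. Blood cells are known for high levels of filamin A, of the plastin *Lcp1* and of *Vasp*, whereas *Flnc* is best known from muscle and *Cav1* from endothelium, fat and muscle.

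The members lie on 6 chromosomes, and *Cav2* and *Cav1* are neighbours on the same strand. On GRCm38, *Cav2* spans chr6:17281185-17289115 and *Cav1* chr6:17306335-17341452, with 17219 bases between them. *Flnc* lies at chr6:29433256-29461883, *Fblim1* at chr4:141576062-141606096 and *Pak1* at chr7:97788541-97912381. *Smtnl2* is at chr11:72389164-72411713, *Evl* at chr12:108554720-108688516, *Flna* at chrX:74223461-74249820 and *Pls3* at chrX:75785654-75875182. Only *Evl* shares exon bases with another gene, 278 bases with *Degs2* on the opposite strand. *Degs2* had 91 reads over the 12 libraries against 12782 for *Evl*, and the other 8 members share no exon bases with any annotated gene.

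RefSeq promoter windows, the 250 bases before each annotated start, were found for all 9 members, 16 windows in all. They were searched on both strands for TGACTCA or TGAGTCA (the AP-1 element), TGACGTCA (the cAMP response element), CACGTG (an E-box), GGGCGG (the GC box) and the CArG box bound by serum response factor. Of 32536 different promoter windows, 4.45% held the AP-1 letters, 1.56% the cAMP response element, 6.04% the E-box, 32.97% the GC box and 1.48% a CArG box. Among the members, AP-1 letters stood 92 bases before the start of *Cav2* and 80 bases before a start of *Fblim1*. The cAMP response element stood 234 and 182 bases before the start of *Pak1*, with an E-box at 132 bases. None of these overlapped another match. The window of *Cav1* nearest the start of the gene held no searched element other than 1 GC box, and no member window held a CArG box. A match of letters is a description and says nothing of binding. The windows with a match other than the GC box are shown because they belong to genes with unlike dose patterns, with the AP-1, cAMP response and E-box letters in capitals. They are chr6:17280935-17281184 on the plus strand for *Cav2*, chr4:141606097-141606302 on the minus strand for *Fblim1*, without the part that lies within the gene in GENCODE, and chr7:97788291-97788540 on the plus strand for *Pak1*.
Cav2: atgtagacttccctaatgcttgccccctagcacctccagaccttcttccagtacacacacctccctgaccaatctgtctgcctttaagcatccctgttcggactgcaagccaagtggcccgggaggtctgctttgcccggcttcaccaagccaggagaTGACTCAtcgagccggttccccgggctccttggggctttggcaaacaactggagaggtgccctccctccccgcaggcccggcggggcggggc
Fblim1: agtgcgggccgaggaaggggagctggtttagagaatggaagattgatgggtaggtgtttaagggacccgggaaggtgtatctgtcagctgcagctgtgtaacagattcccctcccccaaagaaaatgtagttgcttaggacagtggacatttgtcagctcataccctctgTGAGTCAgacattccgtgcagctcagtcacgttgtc
Pak1: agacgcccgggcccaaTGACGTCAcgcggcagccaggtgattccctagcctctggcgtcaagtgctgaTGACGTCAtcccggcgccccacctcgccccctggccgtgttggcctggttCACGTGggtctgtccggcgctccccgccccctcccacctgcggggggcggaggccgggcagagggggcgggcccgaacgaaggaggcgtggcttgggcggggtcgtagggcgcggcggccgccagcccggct

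Between 20451312 and 28038612 reads were counted per library. Levels are CPM, each count divided by its TMM-normalized library size and scaled to 1e6 reads, and a group is given by its mean ± SD (n = 4). A gene was called at an adjusted p under 0.05 in edgeR's quasi-likelihood test, adjusted over all 14894 genes by the Benjamini-Hochberg method. Levels of different genes are compared only as CPM per kb of exon. The trend of counts on exon length, a sign of RNA or library quality, had its lowest slope in replicate 3 at 50 µM (-0.0664, against -0.0485 to 0.041 in the vehicle and 10 µM libraries). With vehicle the lowest slope was in replicate 4 (-0.0383) and at 10 µM in replicate 1 (-0.0485). In each group the library with the lowest slope also had the lowest *Flna* and *Flnc* levels. Vehicle replicate 4 differed most from the other libraries of its group, with a chi-square per degree of freedom of 18.6 to 59.8, against 9.41 to 17.9 between the others. Values without each of these 3 libraries are given with *Flna* and *Flnc*, and the part of library quality in them was not tested.

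Against vehicle, 10 µM IPA went with higher *Cav1*, *Fblim1*, *Evl* and *Pls3*, and 50 µM with higher *Flnc*, *Fblim1*, *Cav1* and *Evl* and lower *Pak1*, *Pls3* and *Smtnl2*, the last with groups that overlapped and a call kept in only 2 of 8 fits without a library. At 10 µM, 4 members were called higher and 0 lower, in a comparison where 0.329% of all genes were called higher and 0.0806% lower. The 4 became 1 without 10 µM replicate 2 or 3 and 2 without vehicle replicate 1. For the lower direction, 1 member (*Pak1*) had an unadjusted p under 0.05 in edgeR's test, and DESeq2 called it. At 50 µM, 4 members were called higher and 3 lower than with vehicle, where 7.00% of all genes were higher and 6.50% lower. Between the doses, 1 member was called higher at 50 µM and 5 lower, beside 7.52% and 7.85% of all genes. The median log2 fold change of the 9 members was 0.46 at 10 µM and -0.03 at 50 µM, both against vehicle, and -0.26 between the doses, with medians of all genes between -0.01 and 0.01. These contrasts chose the members, so nothing is read from the shares. The comparisons with vehicle also share the same 4 vehicle libraries.

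Groups that did not overlap were counted as well. At 10 µM, the 4 libraries of 4 members all lay above the vehicle libraries, and those of *Pak1* all lay below them, where 3.57% of all genes were so separated upwards and 2.56% downwards. At 50 µM, 4 members lay wholly above vehicle and 3 wholly below it (*Flna*, *Pls3* and *Pak1*), beside 9.45% and 10.5% of all genes. Between the doses, *Flnc* lay wholly above and *Cav2*, *Flna*, *Pls3*, *Smtnl2* and *Pak1* wholly below, beside 9.43% and 10.9%.

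**Figure D1:**
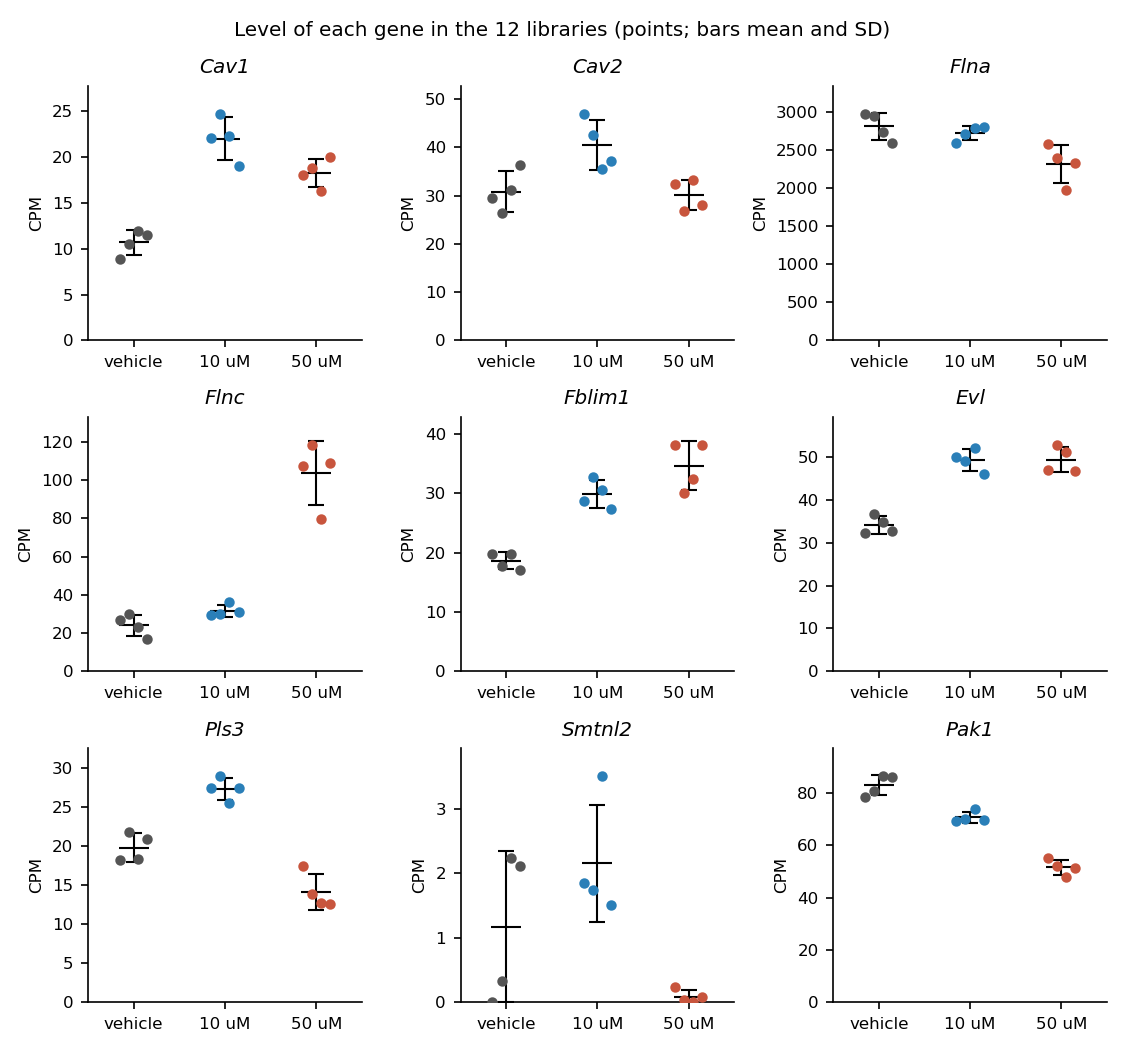
CPM of each of the 9 genes (vertical axes from 0) in the 4 vehicle, 4 10 µM and 4 50 µM libraries; points are libraries in order of replicate number, bars the mean and SD, with the lower bar of *Smtnl2* ending at the axis. *Cav1*, *Fblim1* and *Evl* lie above vehicle at both doses, *Flnc* only at 50 µM without overlap, *Cav2* and *Pls3* have their highest mean at 10 µM, and *Pak1* is lower at each step.

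*Cav1*, which encodes the main scaffold protein of caveolae, was higher with IPA at both doses. The vehicle libraries stood at 8.89, 10.6, 11.9 and 11.5 CPM, those at 10 µM at 22.1, 24.7, 22.3 and 19.0, and those at 50 µM at 18.03, 18.9, 16.4 and 19.99. Both doses lay above every vehicle library, and the doses overlapped each other. The group means were 10.7 ± 1.35, 22.03 ± 2.33 and 18.3 ± 1.53 CPM (SD, n = 4). In edgeR's test *Cav1* had a log2 fold change of 1.04 (SE 0.12, adjusted p = 0.00574) at 10 µM and 0.78 (SE 0.12, adjusted p = 0.000711) at 50 µM. *Cav1* stayed called at both doses whichever library was left out, with adjusted p up to 0.0377. The step between the doses was -0.26 (SE 0.10, adjusted p = 0.0917), called only without replicate 4 at 10 µM (adjusted p = 0.0446).

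*Cav2*, the partner of *Cav1* in caveolar membranes, had its highest mean at 10 µM. Its vehicle libraries stood at 29.4, 26.4, 31.2 and 36.4 CPM, those at 10 µM at 46.9, 42.6, 35.4 and 37.2, and those at 50 µM at 32.3, 26.9, 33.3 and 28.01. The 10 µM libraries overlapped vehicle in a single library and lay above all 50 µM libraries. The log2 fold change was 0.39 (SE 0.11, adjusted p = 0.241) at 10 µM, -0.03 (SE 0.11, 95% interval -0.25 to 0.19) at 50 µM, and -0.43 (SE 0.10, adjusted p = 0.00922 by edgeR) between the doses. Per kb, *Cav1* was at 33.9% ± 4.65 of *Cav2* with vehicle, 53.0% ± 6.76 at 10 µM and 59.6% ± 10.6 at 50 µM (SD, n = 4). The lowest treated library, at 45.7%, lay above the highest vehicle library, at 38.7%.

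*Flnc*, the filamin best known from muscle, had the largest positive log2 fold change of the 9 genes. With vehicle it stood at 26.8, 29.9, 23.0 and 17.0 CPM, at 10 µM at 29.6, 29.8, 36.4 and 30.9, and at 50 µM at 107.5, 118.2, 79.4 and 109.0. The first 2 groups touched, and every 50 µM library lay far above both. The means were 24.2 ± 5.56, 31.7 ± 3.22 and 103.5 ± 16.7 CPM (SD, n = 4). On the log2 scale the fold change was 0.39 (SE 0.15, adjusted p = 0.444) at 10 µM, 2.11 (SE 0.16, adjusted p = 3.61e-06) at 50 µM, and 1.71 (SE 0.11, adjusted p = 8.06e-08) between the doses, by edgeR. Leaving out any library kept both 50 µM calls, with adjusted p up to 5.01e-05. Without replicate 3 at 50 µM, the library with the lowest length slope, the log2 fold changes at 50 µM were 2.21 and 1.82. Without vehicle replicate 4 they were 0.25 at 10 µM and 1.97 at 50 µM against vehicle, and without replicate 1 at 10 µM they were 0.42 at 10 µM and 1.68 between the doses.

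*Flna*, the filamin of most blood cells, was abundant in every group and somewhat lower at 50 µM. Its vehicle libraries stood at 2976, 2951, 2749 and 2593 CPM, those at 10 µM at 2603, 2710, 2790 and 2802, and those at 50 µM at 2580, 2402, 1976 and 2335. The first 2 groups overlapped, and the 50 µM libraries lay below both by a small gap. The log2 fold change at 50 µM was -0.27 (SE 0.08, adjusted p = 0.0512 by edgeR) against vehicle and -0.23 (SE 0.07, adjusted p = 0.0436 by edgeR) against 10 µM. Neither value was firm. Against vehicle it passed the threshold under 7 of 8 other settings and when vehicle replicate 4 or 50 µM replicate 1 was left out. Against 10 µM it failed under 3 of 8 other settings and when any 1 of 6 libraries was left out (10 µM replicates 2, 3 and 4 and 50 µM replicates 2, 3 and 4). Without replicate 3 at 50 µM, its log2 fold changes there were -0.21 against vehicle and -0.15 against 10 µM. The value against vehicle was -0.31 without vehicle replicate 4, and that between the doses was -0.25 without replicate 1 at 10 µM. With an offset for the trend on exon length, edgeR gave -0.25 (adjusted p = 0.0169) at 50 µM against vehicle.

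*Flna* and *Flnc* differed in level by more than they changed. Set against *Flna* in the same library, per kb of exon, *Flnc* was at 0.656% to 1.01% with vehicle, 1.098% to 1.31% at 10 µM and 4.02% to 4.92% at 50 µM, so that replicate 3 at 50 µM, low in both genes, lay close to the others in this ratio.

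**Figure D2:**
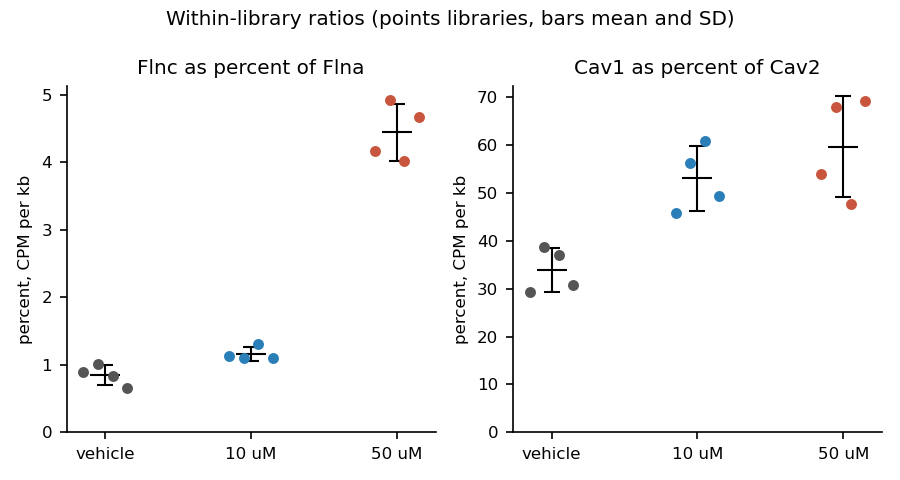
*Flnc* as a percent of *Flna* (left) and *Cav1* as a percent of *Cav2* (right), in CPM per kb within each library; points are libraries, bars the mean and SD, axes from 0. *Flnc* stands between 4.02% and 4.92% of *Flna* at 50 µM and at most 1.31% in the other groups, and *Cav1* stands higher against *Cav2* in all 8 treated libraries.

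*Fblim1*, whose product migfilin binds filamin and adhesion proteins, rose at both doses. The vehicle libraries stood at 19.8, 17.8, 19.9 and 17.1 CPM, those at 10 µM at 28.8, 32.8, 30.6 and 27.4, and those at 50 µM at 38.1, 30.1, 32.5 and 38.1. Vehicle lay below both doses, which overlapped. *Fblim1* had a log2 fold change of 0.68 (SE 0.09, adjusted p = 0.0102) at 10 µM and 0.90 (SE 0.10, adjusted p = 9.24e-05) at 50 µM by edgeR, and of 0.22 (SE 0.09, adjusted p = 0.133) between the doses. The call at 10 µM was lost without 10 µM replicate 2 (adjusted p = 0.0618) or replicate 3 (adjusted p = 0.0508), and that at 50 µM held without any one library.

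*Evl*, the Ena/VASP member that favours filament elongation, was higher than with vehicle by similar amounts at both doses. With vehicle it stood at 32.2, 36.7, 34.8 and 32.6 CPM, at 10 µM at 49.9, 49.1, 52.2 and 46.1, and at 50 µM at 46.9, 52.7, 51.1 and 46.8. The treated libraries of both doses covered almost the same range, well above vehicle. Against vehicle its log2 fold change was 0.53 (SE 0.07, adjusted p = 0.0130) at 10 µM and 0.54 (SE 0.08, adjusted p = 0.000605) at 50 µM by edgeR. Between the doses it was 0.01 (SE 0.07, 95% interval -0.14 to 0.15). The 10 µM call was lost without vehicle replicate 1 (adjusted p = 0.0652), 10 µM replicate 2 (adjusted p = 0.0729) or 10 µM replicate 3 (adjusted p = 0.0657).

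*Pls3*, which encodes a plastin that bundles filaments, moved in opposite directions at the 2 doses. Its vehicle libraries stood at 18.3, 21.8, 18.3 and 20.9 CPM, those at 10 µM at 27.4, 29.0, 25.6 and 27.4, and those at 50 µM at 17.4, 13.9, 12.7 and 12.6. The 3 groups did not overlap, with vehicle in the middle. The log2 fold change was 0.46 (SE 0.09, adjusted p = 0.0498) at 10 µM, -0.48 (SE 0.12, adjusted p = 0.0172) at 50 µM and -0.95 (SE 0.11, adjusted p = 2.39e-05) between the doses, by edgeR. The step between the doses was called whichever library was left out. The 10 µM value lay at the threshold and was called in only 1 of the 8 fits without a library (without vehicle replicate 4), with adjusted p up to 0.223. The 50 µM call was lost without 50 µM replicate 2 (adjusted p = 0.0520) or replicate 4 (adjusted p = 0.0597).

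*Pak1*, the kinase below Rac and Cdc42, was lower at each dose. It stood at 78.6, 80.7, 86.3 and 86.2 CPM with vehicle, at 69.4, 69.9, 73.7 and 69.6 at 10 µM, and at 55.1, 51.9, 48.0 and 51.4 at 50 µM. The 3 groups were fully apart, in order of dose. The log2 fold change was -0.23 (SE 0.06, adjusted p = 0.185) at 10 µM, -0.68 (SE 0.07, adjusted p = 7.67e-05) at 50 µM and -0.45 (SE 0.07, adjusted p = 0.000297) between the doses, by edgeR. The 10 µM value passed with DESeq2 alone of 8 other settings (adjusted p = 0.0281). Both 50 µM calls held without any one library.

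*Smtnl2*, a smoothelin-like gene, was close to the limit of detection, and its counts were uneven within the vehicle group. The vehicle libraries had 0, 9, 50 and 53 reads, those at 10 µM 51, 36, 93 and 33, and those at 50 µM 5, 1, 0 and 2. The vehicle group thus overlapped both treated groups, and only the doses were apart from each other. The means were 1.17 ± 1.17, 2.15 ± 0.910 and 0.0912 ± 0.108 CPM (SD, n = 4). *Smtnl2* passed the filter of 0.5 CPM only through its 10 µM libraries and vehicle replicates 3 and 4. No 50 µM library reached that level (at most 0.244 CPM). Its low values at 50 µM are therefore a description of a gene that entered the test through the other groups. The fall from 10 to 50 µM, with a log2 fold change of -4.54 (SE 0.59, adjusted p = 7.49e-05 by edgeR), was called whichever library was left out, with values from -5.53 (without 50 µM replicate 1) to -4.19. That against vehicle, -3.64 (SE 1.12, adjusted p = 0.0477), was called in only 2 of the 8 fits without a library, those without vehicle replicate 1 or 2, and not by DESeq2 (adjusted p = 0.0961) or limma-voom (log2 fold change -2.33, adjusted p = 0.420). It was -4.64 without 50 µM replicate 1 and lay between -4.06 and -3.12 when any other 1 library was left out.

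**Figure D3:**
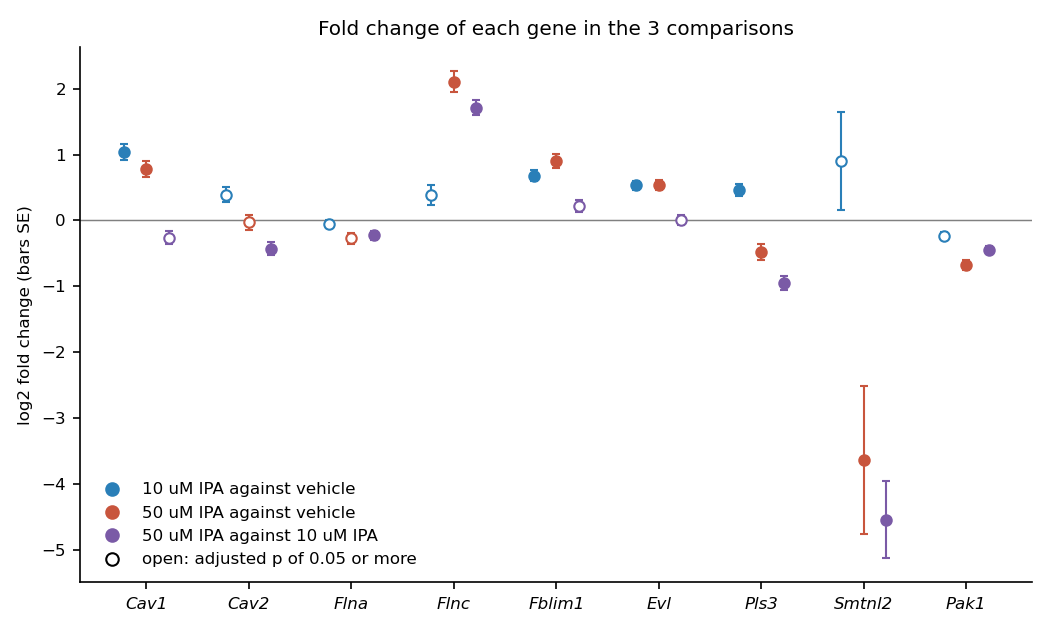
Log2 fold change with SE (vertical axis) of each gene in the 3 comparisons, from edgeR fits on 8 libraries each; filled points have an adjusted p under 0.05. *Flnc* at 50 µM (2.11) and *Smtnl2* between the doses (-4.54) stand farthest from 0, and *Pls3* is above 0 at 10 µM and below it at 50 µM.

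Members differed widely in level. Over the 12 libraries, *Flna* had 279.0 CPM per kb and ranked 159 of 14889 tested genes with a known exon length. *Pak1* (17.4), *Evl* (15.1) and *Cav2* (10.2 CPM per kb) followed, then *Fblim1* (6.23), *Flnc* (5.65), *Cav1* (4.94) and *Pls3* (4.82), and *Smtnl2* was last at 0.298 CPM per kb. The members other than *Flna* and *Smtnl2* thus ranked between 3104 and 7338.

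Of 12 paralogs of the members that were considered, 8 had enough reads to be tested. At 10 µM, edgeR called 0 of the 8, with 1 (*Pak2*) at an unadjusted p under 0.05, and DESeq2 called 0. At 50 µM *Pak2* was called lower against vehicle, and *Enah* was called higher and *Pak2* lower against 10 µM. Of all genes, 0.329% were called higher and 0.0806% lower at 10 µM, 7.00% and 6.50% at 50 µM against vehicle, and 7.52% and 7.85% against 10 µM. *Cav3*, *Pak3* and *Pak7* had 0 reads in the 12 libraries and *Smtnl1* had 1.

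*Pak2*, the more abundant PAK, stood at 402.2 ± 9.74 CPM with vehicle, 369.6 ± 12.7 at 10 µM and 315.3 ± 24.0 at 50 µM (SD, n = 4), and was called lower at 50 µM (log2 fold change -0.34, SE 0.07, adjusted p = 0.00642 by edgeR), also without any one library. Against 10 µM it was lower by a log2 fold change of -0.23 (SE 0.06, adjusted p = 0.0257), a call kept in 2 of 8 fits without a library. *Pak4* had 21.1 ± 0.548, 22.5 ± 0.983 and 24.1 ± 0.180 CPM and *Pak6* 0.664 ± 0.404, 0.668 ± 0.344 and 1.40 ± 0.190, and neither was called.

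Among the Ena/VASP genes, the plastins and the smoothelins, the abundant gene was a paralog of the member and was not called. Per kb, *Vasp* made up 95.2% ± 0.381 of the Ena/VASP genes with vehicle and 93.1% ± 0.357 at 50 µM, and *Evl* 3.27% ± 0.294 and 5.02% ± 0.324. *Vasp* itself had a log2 fold change of -0.11 (SE 0.06, adjusted p = 0.273) at 50 µM. *Lcp1*, the leukocyte plastin, made up 98.4% ± 0.168 of the plastins with vehicle, 98.0% ± 0.120 at 10 µM and 98.7% ± 0.213 at 50 µM, and its log2 fold change at 50 µM was -0.03 (SE 0.06, adjusted p = 0.777). *Pls3* made up 1.37% ± 0.154, 1.81% ± 0.125 and 1.01% ± 0.137. *Smtn*, the smoothelin gene itself, made up 84.7% ± 14.6 of the smoothelins with vehicle, 74.1% ± 7.63 at 10 µM and 98.4% ± 2.04 at 50 µM, and *Smtnl2* 15.3% ± 14.6, 25.6% ± 7.80 and 1.65% ± 2.04. *Pls1*, *Smtn* and *Enah* at 50 µM against vehicle were not called, with log2 fold changes of 0.20, -0.09 and 0.20, while *Enah* was called between the doses (0.32, SE 0.07, adjusted p = 0.00871).

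**Figure D4:**
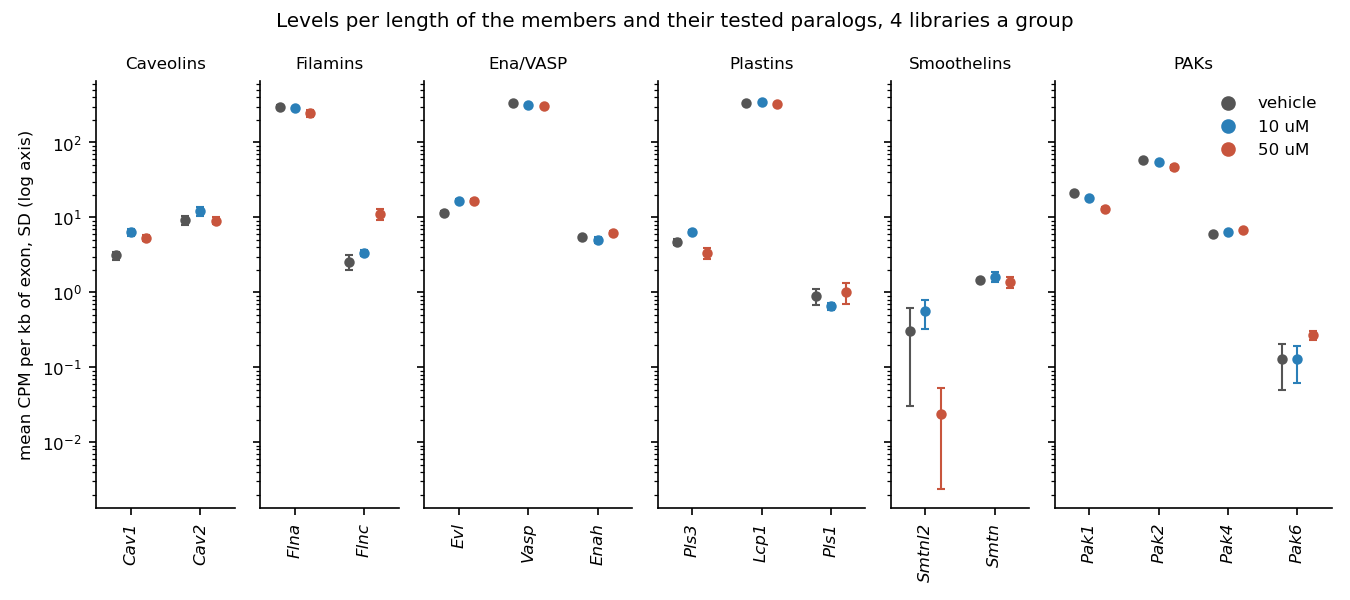
Mean CPM per kb of exon with SD (log axis) of the members and their tested paralogs by family, 4 libraries a group; the lower bars of *Smtnl2* with vehicle and at 50 µM are shortened, since the log axis has no 0. *Flna*, *Vasp*, *Lcp1* and *Pak2* lead their families in every group.

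Wider lists of actin and adhesion genes, 172 genes with the paralogs, were compared in the same fits, and 143 were tested. At 10 µM, 1 of the 143 was called, *Eps8*, an actin capping and bundling gene (log2 fold change 0.41, SE 0.06, adjusted p = 0.0244), and it was called in only 2 of 8 fits without a library, in a comparison where 0.329% of all genes were called higher. DESeq2 called 3, *Eps8* and the tropomyosin genes *Tpm2* and *Tpm4*, all higher, where it called 197 of all 14894 genes higher. At 50 µM, 14 were called higher and 10 lower than with vehicle, and 11 and 11 against 10 µM. Beside these stand 7.00% of all genes higher and 6.50% lower against vehicle, and 7.52% and 7.85% against 10 µM. The medians of the 143 log2 fold changes were -0.0015, -0.0086 and -0.016 in the 3 comparisons. Of the 24 genes called at 50 µM against vehicle, 15 were called whichever library was left out, and the genes named next are among these unless stated.

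Among genes of the caveola coat and neck, 2 of 9 were called higher and 1 lower at 50 µM against vehicle, beside 7.00% and 6.50% of all genes. *Pacsin1*, a membrane-bending gene, rose by a log2 fold change of 1.27 (SE 0.18, adjusted p = 0.000492), from 3.33 ± 0.655 to 7.99 ± 1.34 CPM. *Ehd1*, an ATPase gene of membrane recycling, rose by 0.42 (SE 0.08, adjusted p = 0.00378), and its relative *Ehd3* had a log2 fold change of -0.89 (SE 0.20, adjusted p = 0.00985). The cavin genes *Cavin1* and *Cavin2*, whose products coat caveolae, were tested and had log2 fold changes of -0.52 and -0.24 at 50 µM against vehicle, neither of them called. *Ehd2*, *Ehd4*, *Pacsin2* and *Pacsin3* had 0.37, -0.15, -0.11 and 1.23 in that comparison and were not called either. *Cavin3* and *Cavin4* had 17 and 4 reads over the 12 libraries and were not tested.

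Among filamin partners and integrin activators, 2 of 18 were called higher and 3 lower at 50 µM against vehicle, beside 7.00% and 6.50% of all genes. *Asb2*, the substrate adaptor of a ubiquitin ligase that targets filamins for degradation, stood at 46.4 ± 8.37 CPM with vehicle, 40.5 ± 5.10 at 10 µM and 118.9 ± 19.97 at 50 µM. Its log2 fold change was 1.37 (SE 0.14, adjusted p = 3.55e-05) against vehicle and 1.56 (SE 0.11, adjusted p = 3.74e-07) against 10 µM. *Arhgap24*, a filamin-binding Rac inhibitor gene, fell at 50 µM (log2 fold change -0.65, SE 0.12, adjusted p = 0.00242), as did *Rflnb*, whose product regulates filamin (-0.39, SE 0.09, adjusted p = 0.0106). The integrin gene *Itgb2* (0.25, SE 0.06, adjusted p = 0.0197) and the talin gene *Tln2* (-0.85, SE 0.22, adjusted p = 0.0207) were called as well, but not in every fit without a library.

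In the contractile list, 4 of 15 were called higher and 0 lower at 50 µM against vehicle, by edgeR and by DESeq2, with 5 higher and 2 lower at an unadjusted p under 0.05 in edgeR's test. In that comparison 7.00% of all genes were called higher and 6.50% lower by edgeR. DESeq2 called 1262 of the 14894 genes higher and 1292 lower. *Tagln2* (log2 fold change 0.35, SE 0.07, adjusted p = 0.00749) and the tropomyosin gene *Tpm4* (0.30, SE 0.06, adjusted p = 0.00587) held without any one library, whereas *Tpm1* and *Cnn3* did not. These are forms found in many non-muscle cells. *Acta2*, the smooth muscle actin gene, was not called against vehicle (log2 fold change -0.35, SE 0.19, adjusted p = 0.261) and was lower at 50 µM than at 10 µM (-0.66, SE 0.13, adjusted p = 0.00339).

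Of 26 small GTPase, PAK partner and cofilin pathway genes, 3 were called higher and 1 lower at 50 µM against vehicle, beside 7.00% and 6.50% of all genes, which are also the background of the lists that follow. *Cfl2*, a cofilin gene, had a log2 fold change of 0.74 (SE 0.12, adjusted p = 0.00131), *Rhoc*, a small GTPase gene, of 0.67 (SE 0.11, adjusted p = 0.00178) and *Capg*, a capping gene, of 0.36 (SE 0.07, adjusted p = 0.00596). *Rac1*, whose product activates PAK1, was called only between the doses (log2 fold change -0.24, SE 0.06, adjusted p = 0.0136), and not without 10 µM replicate 2 (adjusted p = 0.0607). In the Arp2/3 and WASP family, 2 of 26 were higher and 2 lower, among them *Abi2* (0.59, SE 0.12, adjusted p = 0.00673) and *Was* (-0.33, SE 0.07, adjusted p = 0.00757). Of the LIM and elongation genes 1 of 19 was higher and 1 lower, and of the crosslinkers and bundlers 0 of 16 were higher and 1 lower (*Marcksl1*, -0.29, SE 0.07, adjusted p = 0.0141), by edgeR and by DESeq2, with 0 higher and 3 lower at an unadjusted p under 0.05. Of all genes, 0.329% were called higher and 0.0806% lower at 10 µM, and 7.52% and 7.85% between the doses, and 1308 of the 14894 had an unadjusted p under 0.05 at 10 µM, 4159 at 50 µM against vehicle and 4393 between the doses. Of the 6 tested genes for actins, serum response factor and its coactivators, edgeR called 0 in each of the 3 comparisons, with 0 at an unadjusted p under 0.05 at 10 µM and 1 at 50 µM against either group, and DESeq2 called 1, *Srf*, lower at 50 µM against vehicle.

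**Figure D5:**
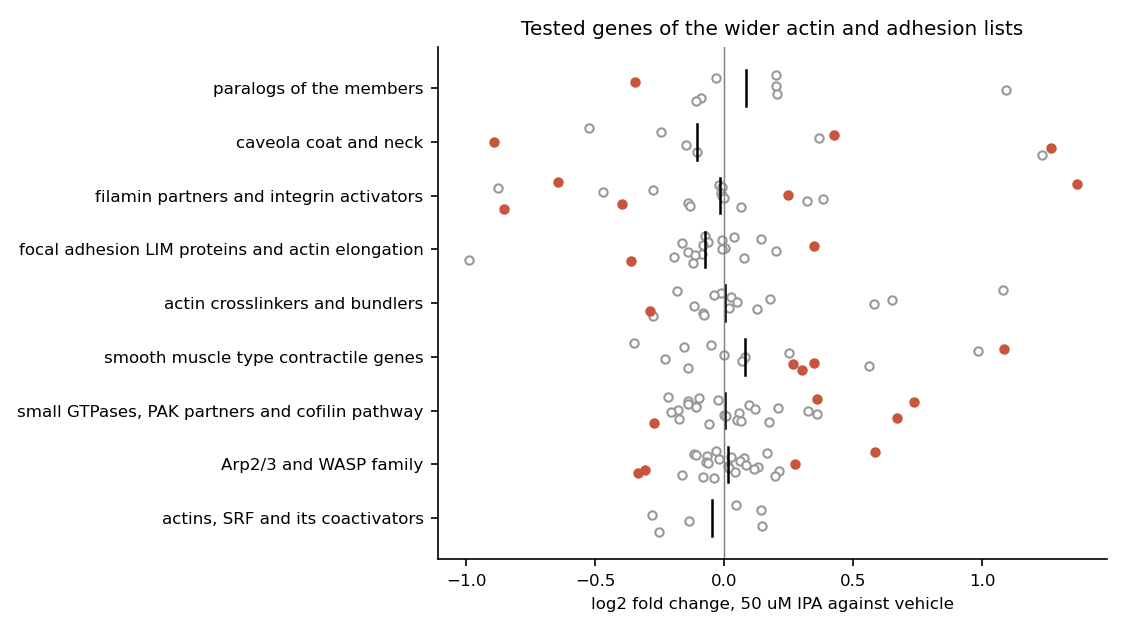
Log2 fold change at 50 µM against vehicle (horizontal axis) of the 143 tested genes in 9 lists; filled red points were called, and black bars are list medians. Called genes lie on both sides of 0 in most lists, with *Asb2* (1.37) and *Pacsin1* (1.27) farthest to the right among them.

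Markers of cells in which these genes are best known were checked in the same libraries. Of the endothelial markers, 6 of 9 had reads in every library, among them the defining markers *Pecam1* (45.8 CPM with vehicle, 59.4 at 10 µM and 44.2 at 50 µM), *Kdr* (6.45, 8.05 and 6.35) and *Cdh5* (0.553, 0.789 and 0.362), while *Cldn5* had 0 reads in all 12. *Vwf* stood at 59.5, 61.1 and 52.5 CPM, *Egfl7* at 3.78, 2.75 and 3.74 and *Tie1* at 1.34, 1.52 and 2.08. *Tek* was at 0.0839, 0.251 and 0.174 CPM, and *Emcn* had 0 reads in 9 libraries. Most of the endothelial sum given below came from *Pecam1* and *Vwf*. Of the stromal markers, 4 of 10 had reads in every library (*Col1a1*, *Pdgfrb*, *Thy1* and *Lepr*), and *Dcn* had 0 in 10. Of the smooth muscle and pericyte markers, *Acta2* (8.41, 10.4 and 6.56 CPM), *Myh11* (0.753, 0.670 and 0.907) and *Tagln* had reads in every library, and *Cnn1* and *Des* each had 0 in 11. Summed over their lists, endothelial markers stood at 111 to 124 CPM with vehicle, 132 to 137 at 10 µM and 78.6 to 134 at 50 µM, and smooth muscle and pericyte markers at 8.28 to 12.0, 10.3 to 12.5 and 6.34 to 9.92 CPM. Stromal markers stood at 180 to 207 CPM with vehicle, 153 to 166 at 10 µM and 281 to 364 at 50 µM, of which *Thy1* alone was 188, 147 and 319 CPM on average. *Lepr* stood at 6.55, 6.43 and 2.78 CPM, *Col1a1* at 2.27, 1.93 and 1.30 and *Pdgfrb* at 1.57, 1.69 and 1.45, and of the 4 tested stromal markers 1 was called lower at 10 µM, beside 0.0806% of all genes, and 1 higher and 1 lower at 50 µM against either group, beside 7.00% and 6.50% of all genes against vehicle and 7.52% and 7.85% against 10 µM. Of the tested endothelial markers 1 of 6, and of the smooth muscle and pericyte markers 1 of 4, were called lower between the doses. Megakaryocyte markers stood at 293 to 337, 284 to 354 and 361 to 415 CPM, with 2 of 8 called higher at 50 µM against either group. Mast cell and basophil markers stood at 323 to 399, 261 to 353 and 302 to 410 CPM, with 1 of 6 tested called lower at 50 µM against vehicle and 1 called higher against 10 µM.

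Myeloid markers are given in the same way. Macrophage markers summed to 1730 to 1920 CPM with vehicle, 2060 to 2260 at 10 µM and 1750 to 1880 at 50 µM, with 3 of 9 called higher at 10 µM, beside 0.329% of all genes. At 50 µM, 2 were called higher and 2 lower against vehicle, and 1 higher and 6 lower against 10 µM, where 7.00% and 6.50% of all genes were called higher and lower against vehicle and 7.52% and 7.85% against 10 µM. Neutrophil markers summed to 15300 to 22100, 14700 to 17100 and 10900 to 15500 CPM, with 5 of 9 called lower at 50 µM against vehicle and 6 of 9 against 10 µM, beside the same shares, and their sums at 10 µM overlapped those with vehicle. Most of each sum came from *S100a9* (8090, 7260 and 6220 CPM), *S100a8* (4630, 3930 and 3560) and *Ltf* (3950, 3390 and 2450). The defining marker *Ly6g* went the other way, at 45.9, 51.0 and 53.9 CPM. By flow cytometry of such cultures, the paper reported no change in neutrophils with IPA. The part of these cell types in the values of the members was not tested.

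The genes whose log2 CPM followed each member most closely over the 12 libraries are given as a description. *Flnc* was closest to *Slc1a4*, an amino acid transporter gene, and *Irf4*, a transcription factor gene (r = 0.991 and 0.987), and *Flna* to *2900097C17Rik* and *Wdfy4* (0.983 and 0.980). *Bin1* was among the genes closest to *Cav1* (0.945) and *Prdx4* among those closest to *Cav2* (0.963). *Fblim1* was closest to *Cd300ld* and *Wfs1* (0.949 and 0.931) and *Evl* to *Mucl1* and *Hdac9* (0.949 and 0.946). *Pls3* was closest to *Chic2* and *Sdc1* (0.968 and 0.962), *Smtnl2* to *St6gal1* and *Slc16a3* (0.948 and 0.947), and *Pak1* to *Sla* and *Rsbn1* (both 0.977). The 12 points share dose and library, and within groups, as deviations from the group means, r ranged from 0.39 (*Fblim1* and *Cd300ld*) to 0.99 (*Flna* and *Wdfy4*), with 0.47 for *Evl* and *Hdac9*, 0.58 for *Fblim1* and *Wfs1*, 0.68 for *Cav1* and *Bin1* and 0.87 for *Flnc* and *Slc1a4*.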

How the data were processed

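Bone marrow cultures were profiled by stranded mRNA-seq. Per the paper's methods and the submitters' processing notes, the authors removed adapters with Atropos, used HISAT2 (2.2.1) for alignment to mm10, and obtained gene counts on Ensembl annotation from featureCounts (2.0.1). The notes also name R (4.3.0) and DESeq2 (1.40.2). The strand setting of the counting is not given in the sources used here. The deposited values are raw counts per gene and library, whole numbers without normalization. Groups and replicate numbers came from the labels. The title of 10 µM replicate 3 repeats the number of replicate 2, and its number was taken from the library name in its description. The members and the gene lists were chosen with earlier results of these data known.

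Genes above 0.5 CPM in at least 2 of 12 libraries were tested (14894). Each pair of groups was compared on its 8 libraries with edgeR 4.0.16 in R 4.3.3 (TMM, glmQLFit, glmQLFTest; Benjamini-Hochberg, threshold 0.05). SE is the absolute log2 fold change divided by the square root of F. The 95% intervals took a normal multiple of this SE, which makes them somewhat too narrow for 8 libraries. The alternatives were DESeq2 1.42.0 and its size factors in edgeR, limma-voom (limma 3.58.1), omission of the filter, a minimum of 10 reads per library, all 12 libraries in 1 fit, a replicate block, an offset for exon length (lowess, span 0.3) and leaving out each library. The fit was tested on simulated data.

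Named genes were the members, their tested paralogs, up to 4 genes higher and up to 4 lower per other list and comparison with the largest change among called genes averaging 1 CPM or more, and the 2 genes most correlated with each member (log2 CPM, prior count 2). Not all of them are given in the text, and some genes are not reported here and were left out of the lists. Positions and exon lengths are from GENCODE on GRCm38, and promoters from RefSeq on GRCm38.p6. Plots were drawn with matplotlib.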

Additional observations from a re-analysis of the deposited data

Results flagged for a closer look

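In 27 groups of 4 libraries (9 genes in 3 groups), 2 had a library whose gap to the nearest of the others was too large a part of the range by Dixon's 95% critical value, where chance flags about 1 in 20 groups. Both were replicate 3 at 10 µM, the library whose title repeats the number of replicate 2. *Smtnl2* stood there at 3.50 CPM, against 1.51 to 1.85 in the other libraries of that group, and *Pak1* at 73.7 CPM, against 69.4 to 69.9. Without that library, *Pak1* at 10 µM remained not called by edgeR, and both genes stayed called lower at 50 µM than at 10 µM.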

How the results depend on the processing

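The 10 µM comparison depended most on the processing. Against 61 genes called, DESeq2 called 250, no filter 150, all 12 libraries in 1 fit 118 and the exon length offset 102, and leaving out 1 library gave 4 (without 10 µM replicate 2) to 122 (without vehicle replicate 4). The 4 members called became 1 to 4 when 1 library was left out (1 without 10 µM replicate 2 or 3, 2 without vehicle replicate 1). The 1 gene of the wider lists became 3 with DESeq2, 0 with the exon length offset and 0 to 2 when 1 library was left out. At 50 µM against vehicle, the 2010 genes called became 1248 to 2689 when 1 library was left out, with the fewest without vehicle replicate 3 and 1313 without 50 µM replicate 2. Near 0, values changed sign: the log2 fold change of *Cav2* at 50 µM against vehicle lay between -0.10 and 0.062 when 1 library was left out (above 0 without vehicle replicate 4 or 50 µM replicate 2 or 4), and that of *Evl* between the doses was -0.0073 with the exon length offset and between -0.027 and 0.037 when 1 library was left out (below 0 without 10 µM replicate 4 or 50 µM replicate 2 or 3). The cause of these changes was not tested.

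Samples with the same replicate number did not deviate together (correlations from -0.242 to 0.142), and not every library correlated best with its own number, so the numbers were not taken as pairs. With a replicate block, 3 genes were called at 10 µM, with 0 members and 0 genes of the wider lists. *Cav1*, *Fblim1*, *Evl* and *Pls3* had log2 fold changes of 1.04, 0.68, 0.53 and 0.47 in that fit. Their adjusted p-values by edgeR were 0.0746, 0.117, 0.1565 and 0.226. At 50 µM the block called 1830 genes and 7 members against vehicle, with *Flna* (adjusted p = 0.0399) in place of *Smtnl2* (adjusted p = 0.120), and 2200 genes and 5 members between the doses, without *Flna* (adjusted p = 0.0512).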

Other observations

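Pairs of members followed each other over the 12 libraries in ways that differed within groups. *Cav1* and *Evl* had a Pearson r of log2 CPM of 0.91 over the 12 libraries and 0.22 as deviations from the group means, and *Flnc* and *Pak1* had -0.94 and 0.049. *Flna* and *Flnc* had -0.64 over the 12 libraries and 0.81 within groups, and *Cav2* and *Flnc* -0.42 and -0.84. *Smtnl2* and *Pak1* had 0.63 and 0.84. The neighbours *Cav1* and *Cav2* had 0.52 and 0.16. These values describe 36 pairs in 12 libraries that share dose, depth and normalization, and no test was made.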
